A study of Mus musculus with 5 samples.

Results

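The comparison was between libraries that differ by anti-CTLA-4 alone: Triplet, from tumours of mice given anti-PD-1, anti-CD40 and anti-CTLA-4, and PD1+CD40, from mice given anti-PD-1 and anti-CD40. All mice were wild-type Balb/c animals that carried Renca tumours, a mouse renal cortical adenocarcinoma line, under the skin. Both groups shared anti-PD-1 (clone RMP1-14), which blocks the PD-1 receptor, and agonistic anti-CD40 (FGK4.5/FGK45). Only Triplet also received anti-CTLA-4 (9H10). Each antibody was given into the peritoneum at 200 µg, in 2 doses from day 10, and tumours were collected 24 h after dose 2. T cells, other immune cells and CD45-negative cells were sorted and mixed 2:1:1, with 3 mice pooled into 1 library a side. There was therefore no replicate and no test of any difference. The 95% intervals below (exact Poisson for levels, exact Clopper-Pearson for shares, exact conditional for ratios) cover counting error only and say nothing of the spread between mice.

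Members were the barcodes of 500 or more UMIs and 300 or more genes, with mitochondrial UMIs of 10% or less, that lay in clusters named from markers as T cells, phagocytes (monocytes and macrophages), dendritic cells or neutrophils. They numbered 7229 of the 21616 barcodes of both libraries and of the 52408 barcodes of the 5 libraries of the series. T cells numbered 1116 in Triplet and 438 in PD1+CD40, phagocytes 1704 and 3220, dendritic cells 46 and 149, and neutrophils 87 and 469.

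CTLA-4 is an inhibitory receptor of T cells that competes with CD28 for the ligands CD80 and CD86, and regulatory T cells (Treg) carry much of it. PD-1 restrains T cells that have met antigen. CD40 is a receptor of dendritic cells, macrophages and B cells, whose ligand is displayed by helper T cells; its engagement activates NF-kB and raises antigen presentation. Interferon-gamma, made by T and NK cells, acts on macrophages and induces the chemokine gene Cxcl9, guanylate-binding proteins and other GTPase genes.

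The libraries differed in depth. PD1+CD40 held 16884 barcodes with a median of 1422 UMIs and Triplet 4732 with a median of 13124, from totals of 73974407 and 68564874 UMIs. Mononuclear clusters with a median under 2500 UMIs were left without a class; they held 62.05% of the barcodes of PD1+CD40 and 0.87% of those of Triplet. Within the T class the median depths were 2419.5 and 2569 UMIs, and within phagocytes 12178 and 16766. The libraries shared 18 barcodes. V segments made up 5.71% of T cell receptor UMIs in T cells of Triplet and 5.83% in PD1+CD40, against 75.5% in PBS, although the labels give a 5′ kit for every group. All 9 T cell markers stood at 20 CPM (UMIs scaled to the total of the class in that library) or more in T cells of both libraries, and 13 of 14 phagocyte markers in phagocytes of Triplet and 12 of 14 in PD1+CD40.

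In T cells, the share of Treg-like cells was smaller in Triplet and that of CD4-like cells larger. Treg-like cells were 54.7% of T cells in Triplet (51.8% to 57.7%) and 71.9% in PD1+CD40 (67.5% to 76.1%). CD4-like cells, a class apart from the Treg-like one, were 35.9% (33.1% to 38.8%) against 21.2% (17.5% to 25.4%). The CD4-like class was not CD4 cells alone. Its cluster led by Lef1, Satb1 and Bach2 had 175 CPM of Cd8b1 and 50.8 CPM of Cd8a beside 111 CPM of Cd4, over the 5 libraries. That cluster held 137 of the 401 CD4-like cells of Triplet and 29 of the 93 of PD1+CD40. CD8-like cells were 7.17% (5.73% to 8.84%) against 4.57% (2.81% to 6.96%), with intervals that overlap. The Treg-like share was 58.2% in CD40+CTLA4, 44.1% in PD1+CTLA4 and 40.2% in PBS, so PD1+CD40 had the highest share of the 5 libraries.

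**Figure D1:**
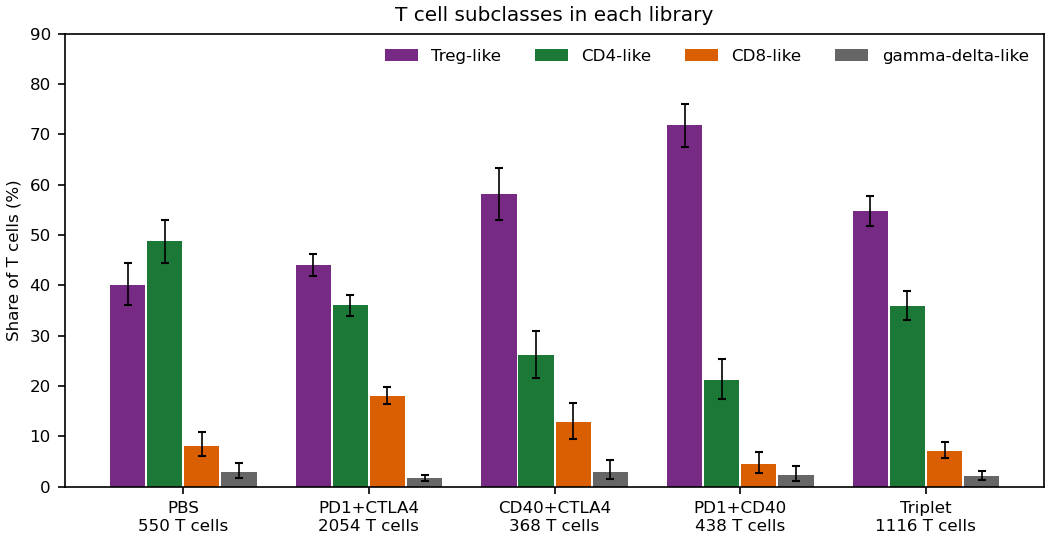
Share of T cells in each subclass (%, y axis) in each of the 5 libraries (x axis, with the number of T cells); bars are shares and whiskers exact 95% Clopper-Pearson intervals. The Treg-like bar stands at 54.7% in Triplet and at 71.9% in PD1+CD40, the highest of the 5.

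The size of that difference depended on how cells were assigned. Foxp3, the transcription factor that defines Treg, was at 135 CPM over all T cells of Triplet and 147 CPM in PD1+CD40, with overlapping intervals (124 to 147 and 128 to 168). Foxp3 UMIs were seen in 27.4% of T cells of Triplet and 31.1% of PD1+CD40. After thinning each cell to 1000 UMIs, which left out 21 and 31 cells, the shares were 13.3% (11.4% to 15.5%) and 15.2% (11.9% to 19.1%). Phagocytes, which should lack Foxp3, had a UMI in 0.293% and 0.186% of cells at their greater depth. When each barcode was assigned by its own marker UMIs the Treg-like share was lower in Triplet by 4.8 percentage points in place of 17.2. The Treg-like clusters are defined in part by Il2ra, Tnfrsf4 and Tnfrsf18, whose levels also differed between the libraries, so cluster sizes and these levels cannot be told apart.

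Over all T cells, 36 of 6025 measured genes were at least 2-fold higher in Triplet (0.598%) and 26 at least 2-fold lower (0.432%). A gene was measured with 20 UMIs over both libraries and 20 CPM in the higher one, and folds are on log2 (CPM + 5). The interval of the ratio lay beyond 2-fold for 11 of the higher and 6 of the lower genes, and the median of all measured genes was 0.03 on the log2 scale.

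Genes of Treg identity were lower in Triplet. Of 20 genes of Treg identity, 16 were measured and all 16 lay below 0, with a median log2 fold of -0.49; 2 were at least 2-fold lower. Il2ra, the high-affinity chain of the IL-2 receptor, stood at 181 CPM in Triplet (168 to 195) and 403 CPM in PD1+CD40 (371 to 437). Tnfrsf9, the costimulatory receptor 4-1BB, stood at 265 against 543 CPM. Tnfrsf18 (GITR) was at 404 against 799 CPM and Tnfrsf4 (OX40) at 506 against 979 CPM, both just inside 2-fold. These 3 are members of the costimulatory receptor list too, which was mixed: 7 of 12 lay above 0 in T cells with a median of 0.05, and 6 of 12 in Treg-like cells with a median of 0.09. Levels of Il2ra in CD40+CTLA4 (229 CPM), PD1+CTLA4 (134 CPM) and PBS (144 CPM) were all below that of PD1+CD40. Ctla4, the target of the added antibody, stood at 349 CPM (330 to 368) against 549 CPM (511 to 588), and Pdcd1, the gene of PD-1, stood at 110 against 179 CPM. Cd40 had 7 and 11 UMIs in T cells.

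Il2ra and these receptors were also lower among Treg-like cells alone, where Foxp3, taken over all of them, was no lower. Within the 611 Treg-like cells of Triplet and 315 of PD1+CD40, 46 of 6101 genes were at least 2-fold higher (0.754%) and 33 lower (0.541%). Foxp3 was at 236 CPM in Triplet (216 to 258) and 196 CPM in PD1+CD40 (170 to 225), and Ikzf2, the Treg factor Helios, at 1977 against 1768 CPM. Il2ra stood at 288 against 530 CPM and Tnfrsf9 at 397 against 694 CPM. Tnfrsf18 stood at 606 against 961 CPM, Tnfrsf4 at 784 against 1237 CPM and Ctla4 at 549 against 703 CPM. The identity list had a median of -0.35 over 17 measured genes, 14 of them below 0 and 0 past 2-fold, beside 0.04 for all genes. The Treg-like cells of the libraries lay in the same clusters, in different proportions. The cluster led by Itgb8, Neb and Arl5a, with Tnfrsf4, Il2ra and Tnfrsf9 among its top genes, held 215 of 611 cells of Triplet and 162 of 315 of PD1+CD40, and the cluster led by Samhd1 and Il1rl1 held 295 and 66. In each of the 4 Treg-like clusters with at least 30 cells of both libraries, Il2ra, Tnfrsf9, Tnfrsf18, Tnfrsf4 and Ctla4 were lower in Triplet. In the cluster led by Samhd1, Il2ra stood at 215.5 against 404.6 CPM and Foxp3 at 335 against 246 CPM. Foxp3 did not go 1 way across these clusters. It was also higher in the one led by Hist1h2ae, at 140 against 120 CPM. It was lower in those led by Itgb8 (217 against 235 CPM) and Ifitm1 (75.0 against 138 CPM). Ikzf2 was lower in the one led by Ifitm1, at 356 against 1076 CPM, and higher in the others. With these 4 clusters weighted the same, the identity list was at -0.31 and Foxp3 at a log2 fold of 0.06. Ctla2a, a cysteine protease inhibitor, was at 140 against 341 CPM. Tff1, a trefoil peptide gene, was at 21.7 against 73.5 CPM.

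The trafficking receptor list was mixed: 8 of 16 measured genes lay above 0 and 8 below, with a median of -0.01, and 3 were at least 2-fold higher and 0 lower. The 3 were Itga4, Itgb1 and S1pr1. Itga4, the alpha-4 integrin that binds VCAM-1, stood at 213 CPM in Triplet (199 to 228) and 83.95 CPM in PD1+CD40 (69.6 to 100.4), a ratio of 2.54 (2.10 to 3.10). Its partner chain Itgb1 stood at 404 against 178 CPM. S1pr1, the receptor that leads T cells out of tissue, was at 151 against 65.1 CPM, and the chemokine receptor Cxcr3, which responds to Cxcl9, at 74.1 against 40.6 CPM. In thinned cells Itga4 was seen in 17.7% of T cells of Triplet (15.5% to 20.1%) and 8.60% of PD1+CD40 (6.06% to 11.8%), and Itgb1 in 28.3% (25.7% to 31.1%) and 13.3% (10.1% to 17.0%).

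The integrin difference was present within Treg-like cells. There Itga4 was at 190 CPM in Triplet against 64.8 CPM in PD1+CD40, a ratio of 2.94 (2.27 to 3.86), and Itgb1 at 267 against 99.6 CPM. In CD4-like cells Itga4 was at 243 CPM in Triplet (216 to 273) and 195 CPM in PD1+CD40 (142 to 262), with overlapping intervals; whether the 2 ratios differ was not tested. Across the libraries, Itga4 in Treg-like cells was highest in PD1+CTLA4 (275 CPM) and lowest in CD40+CTLA4 (61.7 CPM), next to PD1+CD40. Cd226, an activating receptor of T cells, was at 61.3 against 19.3 CPM in Treg-like cells, and Cxcr3 at 90.8 against 42.5 CPM. Gbp6, an interferon-gamma-inducible GTPase gene, was at 60.4 against 23.2 CPM; 22 of 28 interferon-gamma response genes lay above 0 in Treg-like cells, 3 past 2-fold, with a median of 0.31. In the 4 shared Treg-like clusters Itga4, Itgb1, Cxcr3 and Cd226 were higher in Triplet in each. With these clusters weighted the same the log2 fold was 1.31 for Itga4, 0.90 for Itgb1 and 0.82 for Gbp6, and the interferon-gamma list was at 0.04.

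**Figure D2:**
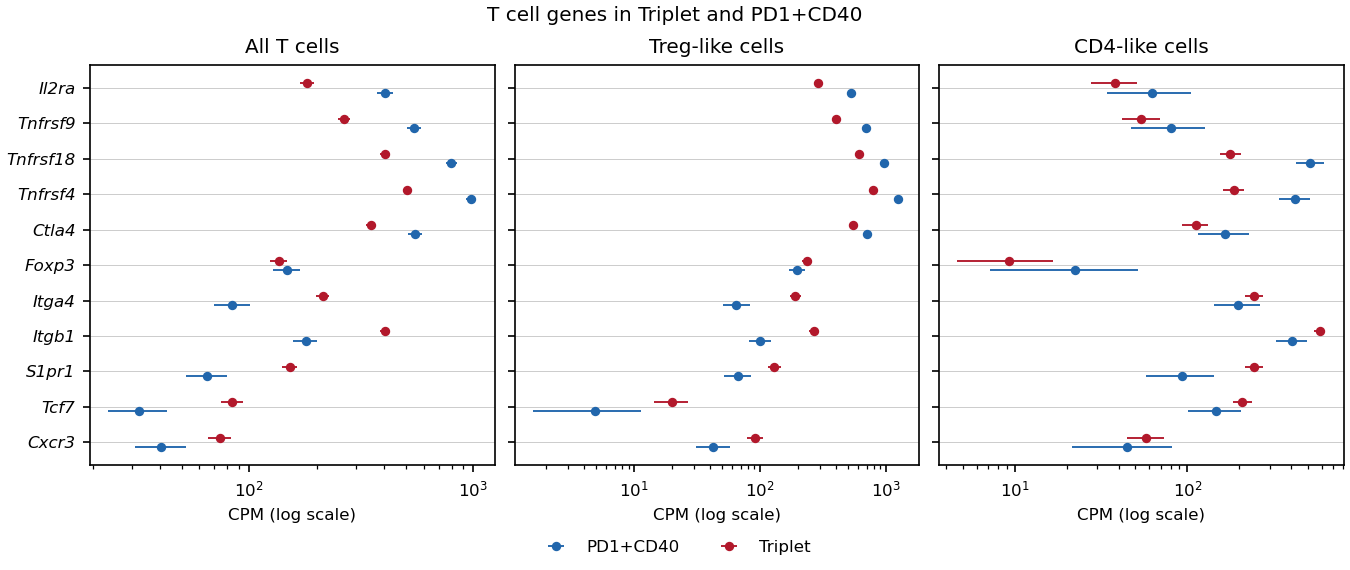
Level of 11 T cell genes (CPM, log axis) in Triplet and PD1+CD40, over all T cells, Treg-like cells and CD4-like cells; points are levels and lines exact 95% Poisson intervals. Il2ra stands at 288 against 530 CPM and Itga4 at 190 against 64.8 CPM in Treg-like cells, in opposite directions.

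Over all T cells, genes of naive and memory T cells were higher in Triplet: 10 of 11 measured lay above 0, with a median of 0.39 and 2 past 2-fold. In CD4-like cells 6 of 11 lay above 0, with a median of 0.16 beside 0.07 for all genes. That median lay between -0.33 and 0.19 under the alternatives. Tcf7, a factor of naive and stem-like memory T cells, stood at 83.8 CPM (74.95 to 93.4) against 32.2 CPM (23.6 to 42.9), and its relative Lef1 at 186 against 115 CPM. Tcf7, Lef1 and Cd40lg, given below, are among the markers that define CD4-like cells. Their levels over all T cells and the CD4-like share therefore cannot be told apart. Aff3, a nuclear factor gene, met the rule of size for naming with Itga4, at 81.5 against 23.1 CPM, a ratio of 3.53 (2.46 to 5.22). PD1+CTLA4 had 78.8 CPM of Aff3 and CD40+CTLA4 46.6 CPM.

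Helper cytokine genes were higher in Triplet over all T cells, on few cells. All 7 measured lay above 0, with a median of 1.07 and 4 past 2-fold. Within the subclasses the list was mixed. In CD4-like cells 5 of 8 lay above 0, with a median of 0.31, and in Treg-like cells 2 of 5, with a median of -0.26. Il2, the T cell growth factor, had 101 UMIs in 51 cells of Triplet and 3 UMIs in 3 cells of PD1+CD40, a ratio of 12.3 (4.10 to 60.8). Ifng stood at 99.7 against 35.0 CPM, but 40.9% of its UMIs in Triplet came from 1 cell. Of the UMIs of Csf2, 90.7% came from 1 cell. Cd40lg, the ligand of CD40, was spread over 139 cells and stood at 49.5 CPM (42.7 to 56.9) against 21.0 CPM (14.2 to 30.0). With every cell weighted the same the list's median was 0.57, and the lowest over the alternatives was 0.20, with no filter on low counts.

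Glycolysis and cell cycle genes were lower in Triplet over all T cells. Of 19 glycolysis and hypoxia genes 16 lay below 0, with a median of -0.41 and 1 past 2-fold: the enzyme gene Tpi1 stood at 120 CPM (109 to 131) against 255 CPM (230 to 283). Pgk1, another glycolytic enzyme, was at 172 against 309 CPM. In Treg-like cells 19 of 20 lay below 0, with a median of -0.44. Of 24 cell cycle genes 22 lay below 0, with a median of -0.29 and 0 past 2-fold. Tyms, which makes thymidylate for DNA, stood at 64.3 against 130 CPM and Rrm2 at 35.9 against 66.5 CPM. In CD4-like cells the cell cycle list went the other way. There 15 of 20 measured genes lay above 0, with a median of 0.43, 3 at least 2-fold higher and 1 lower. Over the 14 that were not over 5 times higher in another lineage the median was 0.18, beside 0.07 for all genes. Inhibitory receptor genes were mixed, with 6 of 13 above 0 and a median of -0.04, and so were cytotoxicity genes, with 5 of 9 above 0 and a median of 0.05. Gzma, a granzyme gene, was at 23.3 against 190 CPM, but 83.03% of its UMIs in PD1+CD40 came from 1 cell. These mixed lists changed sign under some alternatives, inhibitory receptors between -0.36 and 0.02 and cytotoxicity between -0.23 and 0.48. The other 6 lists had medians between -0.66 and 0.08, the other 11 in Treg-like cells, helper cytokines among them, between -0.66 and 0.30.

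In CD4-like cells Tnfrsf18 and Tnfrsf4 were also lower in Triplet. Between 401 cells of Triplet and 93 of PD1+CD40, 406 of 6034 genes were at least 2-fold higher (6.73%) and 143 lower (2.37%), many on few UMIs: the ratio's interval lay beyond 2-fold for 12 and 14. Tnfrsf18 was the one CD4-like gene the rule named, at 178 CPM (155 to 203) against 515 CPM (426 to 618). Tnfrsf4 was at 185 against 422 CPM, and Pdcd1 at 101 (83.4 to 121) against 222 CPM (165 to 293). S1pr1 was at 245 against 93.3 CPM and the costimulatory receptor Cd28 at 225 against 93.3 CPM. The CD4-like cluster led by Penk, Lgals7 and Stfa3 held 35 of the 401 cells of Triplet and 18 of the 93 of PD1+CD40. It scored 0.514 for CD4 and 0.444 for Treg markers, and was named CD4-like for its low Foxp3, at 14.5 CPM. Levels within single CD4-like clusters were not compared. Of 12 measured genes of Treg identity 11 lay below 0, with a median of -0.54. Besides this list and the naive and memory list, 14 lists, cell cycle and helper cytokines among them, had medians between -0.82 and 0.43.

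RNA of other cells in the T class was measured with its markers. The 14 phagocyte markers summed to 482 CPM in T cells of Triplet and 715 CPM in PD1+CD40, with 0 and 1 of them at 0 UMIs. The 8 NK markers summed to 37.7 and 199 CPM, and the 5 erythroid markers to 891 and 2675 CPM. Gzma is 1 of the 8 NK markers, and most of its UMIs in PD1+CD40 came from 1 cell, as given above. In T cells of PD1+CD40 only 1 of the 8 reached 20 CPM and 3 were at 0. Among its Treg-like cells 1 reached 20 CPM and 5 were at 0. Within Treg-like cells the sums were 427 and 624 CPM for phagocyte markers, 21.7 and 265 CPM for NK markers and 22.1 and 3695 CPM for erythroid markers. Within CD4-like cells they were 533 and 990 CPM, 16.1 and 8.88 CPM, and 2894 and 4.44 CPM, so the erythroid order was opposite in the subclasses. Their part in the T cell differences was not tested.

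In phagocytes, genes of the interferon-gamma response were higher in Triplet. Of 5822 measured genes 25 were at least 2-fold higher (0.429%) and 5 lower (0.0859%), and the median of all was 0.08. Of 27 measured interferon-gamma response genes 26 lay above 0 and 5 were past 2-fold, with a median of 0.69. Under trimmed-mean (TMM) scaling the median of all phagocyte folds moves by -0.155, which leaves 15 genes higher and 7 lower; under each alternative tried the list's median stayed between 0.41 and 0.82.

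Cxcl9, the chemokine that draws Cxcr3-bearing T cells, had the widest gap of these genes. It stood at 284 CPM in Triplet (278 to 290) and 78.7 CPM in PD1+CD40 (76.1 to 81.4), a ratio of 3.61 (3.47 to 3.76). It was seen in 454 of 1704 and 372 of 3220 phagocytes. In cells thinned to 1000 UMIs the shares were 11.2% (9.74% to 12.8%) and 4.54% (3.85% to 5.32%). Unthinned, neutrophils held a Cxcl9 UMI in 2.30% and 1.28% of cells, at median depths of 1252 and 993 UMIs. Iigp1, an interferon-induced GTPase gene, stood at 88.0 CPM (84.7 to 91.4) against 30.3 CPM (28.7 to 32.0). Gbp4 was at 33.8 against 11.8 CPM and Gbp2b at 55.4 against 23.4 CPM, both genes of guanylate-binding proteins; Gbp2b was chosen after its values were seen. Fgl2, which encodes a secreted fibrinogen-like protein, was at 47.95 against 19.4 CPM.

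These genes stood higher still in the library with both checkpoint antibodies and no anti-CD40. PD1+CTLA4 had 1138 CPM of Cxcl9, CD40+CTLA4 207 CPM and PBS 28.8 CPM, so that Triplet lay between the other libraries with anti-CTLA-4 and PD1+CD40 lay below all 3. Iigp1 had the same order, at 317 CPM in PD1+CTLA4, 68.8 CPM in CD40+CTLA4 and 16.2 CPM in PBS.

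The difference was present within clusters. Of the 15 phagocyte clusters, 11 held at least 30 cells of both libraries. The median of the interferon-gamma list was above 0 in 11 of 11 (0.28 to 0.96), where the medians of all genes ran from -0.04 to 0.13. Both Cxcl9 and Iigp1 were higher in Triplet in 11 of 11. In the cluster led by the histone genes Hist1h2ap and Hist1h1b, Cxcl9 stood at 324 against 43.3 CPM over 314 and 509 cells.

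**Figure D3:**
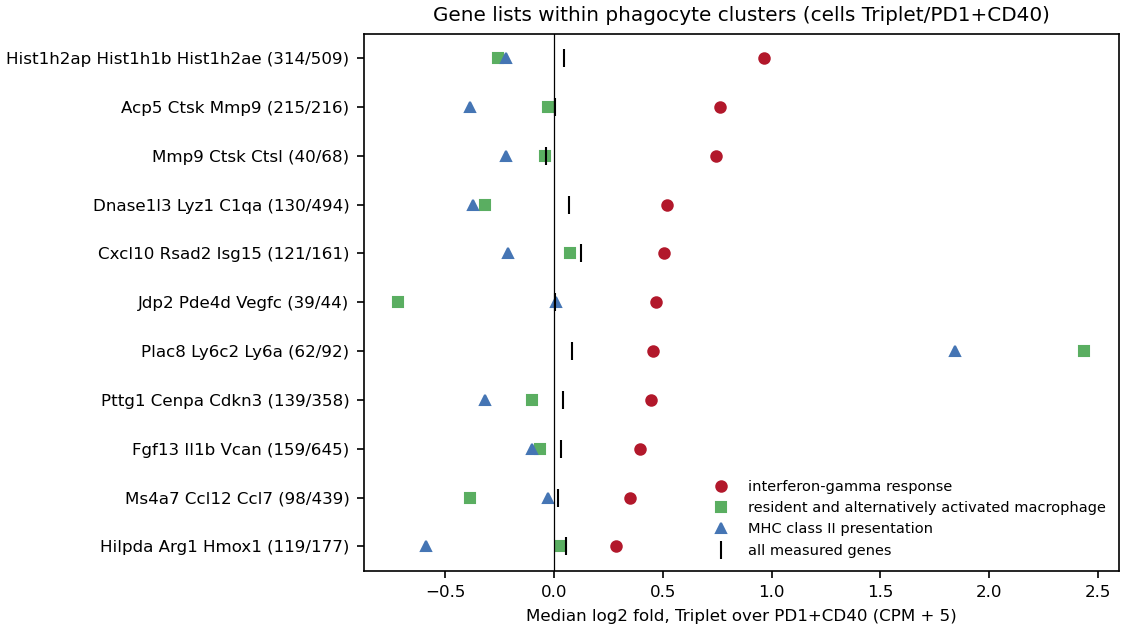
Median log2 fold of Triplet over PD1+CD40 (CPM + 5, x axis) of 3 gene lists in each phagocyte cluster held by at least 30 cells of both libraries (y axis, leading genes and cell numbers); black ticks mark the median of all measured genes. The interferon-gamma medians lie right of the ticks in 11 of 11 clusters, from 0.28 to 0.96, and the MHC class II medians lie below 0 in 9 of 11.

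The promoters of the interferon-gamma genes are shown because these genes were higher together. They were searched for the elements known from interferon-responsive genes: the gamma-activated site, searched as TTCNNNGAA, and the interferon-stimulated response element, searched as GAAANNGAAA, each on both strands. RefSeq windows (GRCm38.p6) of 250 bases before the start were found for 20 of the 27 measured genes. Of these, 8 (40.0%) held the first motif, 10 (50%) the second and 15 (75.0%) either, and the motifs may overlap. Over all 27025 windows the shares were 7.18%, 3.04% and 9.83%. Of 15 windows of the resident macrophage genes described next, 0 held the first motif and 1 (6.67%) either. A match describes letters, not binding. The 3 genes with the highest folds among those with a window are printed, with genes of 1 chromosome left out of the choice. The windows of Fgl2 (chr5:21372423-21372672, plus strand, 1 gamma-activated site), Gbp2b (chr3:142594597-142594846, plus strand, 1 response element) and Cxcl9 (chr5:92328080-92328329, minus strand, no match in this window) follow, 5′ to 3′, with the match in capitals.
Fgl2: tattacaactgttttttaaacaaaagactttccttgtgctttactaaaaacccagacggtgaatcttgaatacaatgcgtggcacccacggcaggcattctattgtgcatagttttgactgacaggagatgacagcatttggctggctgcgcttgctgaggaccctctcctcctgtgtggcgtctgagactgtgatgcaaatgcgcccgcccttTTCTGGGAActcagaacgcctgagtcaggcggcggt
Gbp2b: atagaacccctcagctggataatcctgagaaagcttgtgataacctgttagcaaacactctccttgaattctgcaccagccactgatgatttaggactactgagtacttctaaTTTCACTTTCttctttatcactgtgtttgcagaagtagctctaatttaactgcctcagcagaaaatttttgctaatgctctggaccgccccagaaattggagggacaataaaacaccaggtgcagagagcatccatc
Cxcl9: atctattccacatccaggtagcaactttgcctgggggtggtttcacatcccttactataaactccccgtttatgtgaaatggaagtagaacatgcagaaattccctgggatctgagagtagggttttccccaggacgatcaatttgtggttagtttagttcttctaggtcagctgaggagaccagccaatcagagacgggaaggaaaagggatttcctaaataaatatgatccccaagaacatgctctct

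Other interferon genes differed less. Of 21 type I interferon response genes 20 lay above 0 with a median of 0.24, and of 17 MHC class I presentation genes 16 lay above 0 with a median of 0.27; 0 were past 2-fold in either list, and both medians stayed above 0 under both other scalings. Rsad2, an antiviral gene, was at 30.4 against 13.8 CPM. MHC class II genes went the other way: 9 of 11 lay below 0 with a median of -0.34. That median was -0.11 with barcodes assigned by their own markers, -0.13 at Leiden resolution 2, -0.05 with the unnamed subclusters kept and -0.10 with shared clusters weighted the same. H2-Aa, an MHC class II chain, stood at 2201 CPM (2184 to 2217) against 2968 CPM (2952 to 2985), the invariant chain gene Cd74 at 4605 against 6022 CPM, and the peptide-loading chain H2-DMa at 471 against 690 CPM. The log2 folds of H2-Aa and Cd74 came as near 0 as -0.10 and -0.06 under the alternatives. Class II medians were below 0 in 9 of the 11 shared clusters and at 1.84 in the cluster led by Plac8 and Ly6c2, which are monocyte genes.

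Resident and alternatively activated macrophage genes were higher in phagocytes of Triplet, and within that class this rested on 1 cluster. Of 19 measured, 18 lay above 0 and 8 were past 2-fold, with a median of 0.95. Retnla, an alternative activation gene, had 2955 UMIs in 61 cells of Triplet and 1 UMI in PD1+CD40. It was also a top 10 gene of a mononuclear subcluster that took no class, with 484 barcodes of Triplet and 18 of PD1+CD40. F13a1, a coagulation factor chain, stood at 104 CPM (101 to 108) against 16.9 CPM (15.7 to 18.1). Ccl8, a monocyte chemokine, was at 1054 against 432 CPM, Selenop, a selenium carrier, at 338 against 142 CPM, and Fcrls, an Fc receptor-like gene, at 111 against 29.9 CPM. The scavenger receptor Cd163 was at 20.5 against 2.96 CPM and Lyve1, a hyaluronan receptor, at 15.3 against 1.07 CPM.

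The cluster led by Retnla, Ccl8 and F13a1 held 261 phagocytes of Triplet (15.32%) and 13 of PD1+CD40 (0.4%). It held 287 cells of PD1+CTLA4, 8 of CD40+CTLA4 and 10 of PBS. Without it the list's median was -0.53 and Ccl8 had a log2 fold of -1, F13a1 -0.22, Fcrls -0.21 and Selenop -0.57. With the 11 shared clusters weighted the same in both libraries the median was -0.01. Among those clusters the list was above the median of all genes in 1, the cluster led by Plac8 and Ly6c2, where it reached 2.44 and Ccl8 stood at 2944 against 179 CPM over 62 and 92 cells.

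Osteoclast genes, which encode the machinery of bone-resorbing cells of the macrophage lineage, were higher in Triplet: 13 of 13 lay above 0, with a median of 0.65 and 1 past 2-fold. With shared clusters weighted the same the median was 0.16, and it was below 0 in 2 of the 11 shared clusters. The gelatinase Mmp9 stood at 956 CPM (945 to 967) against 456 CPM (449 to 462), and the protease Ctsk, cathepsin K, at 2777 against 1601 CPM. Ctsk was at 97.2 CPM in PD1+CTLA4 and 10.7 CPM in PBS, the libraries without anti-CD40, and at 2872 CPM in CD40+CTLA4. Mmp9 was at 23.01, 0.749 and 752 CPM in the same order. The cluster led by Acp5, Ctsk and Mmp9 held 12.62% of phagocytes of Triplet and 6.71% of PD1+CD40, and within it Ctsk was at 18240 against 18410 CPM. With shared clusters weighted the same the log2 fold of Mmp9 was 0.30, against 1.06 over all phagocytes, and that of Ctsk 0.07, against 0.79. Mt3, a metallothionein gene, was at 67.3 against 27.0 CPM and was highest in the same cluster, at 520 against 401 CPM.

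**Figure D4:**
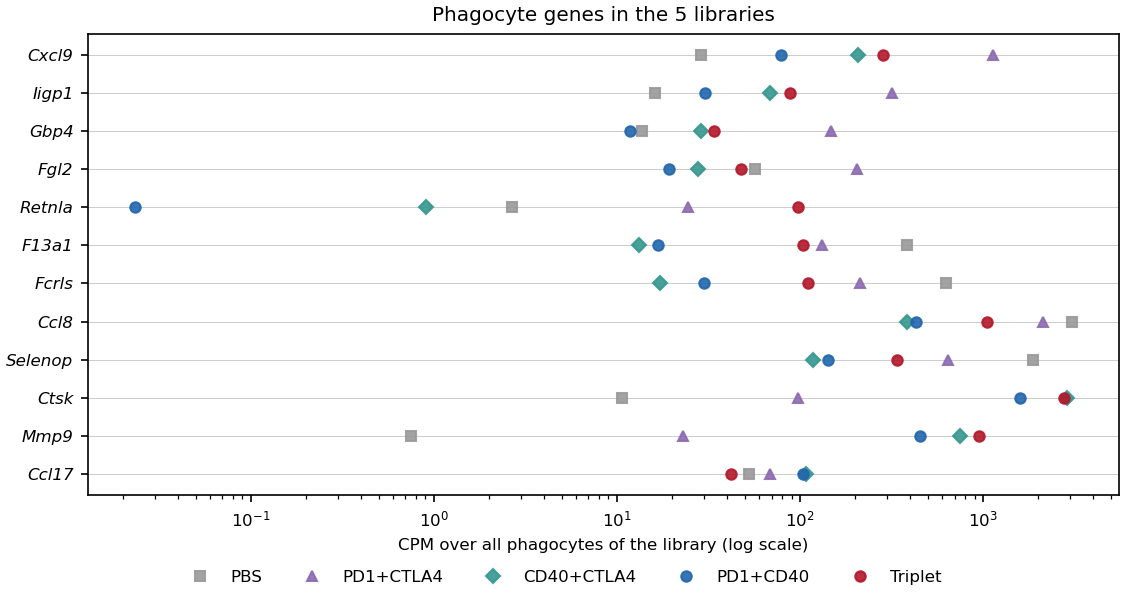
Level of 12 genes over all phagocytes (CPM, log axis) in each of the 5 libraries; each point is 1 library. Cxcl9 lies at 284 CPM in Triplet and 78.7 CPM in PD1+CD40, and Ctsk and Mmp9 lie high in the 3 libraries with anti-CD40.

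Few phagocyte genes were lower in Triplet. Ccl17, a chemokine for Ccr4-bearing T cells, was the one such gene the rule named, at 41.9 CPM (39.6 to 44.3) against 104 CPM (101 to 107), and it was lower in 10 of the 11 shared clusters. Ccl22, which shares its receptor, was at 3.19 against 7.995 CPM, and the cytokine Il1b at 181 against 296 CPM. Cd40 itself was at 33.5 CPM (31.4 to 35.6) and 33.9 CPM (32.2 to 35.7), a ratio of 0.988 (0.911 to 1.07). Of 17 targets of CD40 and NF-kB 12 lay below 0, with a median of -0.13 that lay between -0.27 and -0.002 under the alternatives. Of 18 chemokines 3 were past 2-fold higher and 1 lower, with a median of 0.25 that was -0.02 under TMM scaling and -0.03 under DESeq2 size factors. Complement C4b stood at 27.2 against 4.10 CPM and the heat shock gene Hspa1b at 31.8 against 10.4 CPM. The other 12 lists had medians between -0.21 and 0.45. The 9 T cell markers summed to 15.1 and 12.4 CPM in phagocytes, the 10 neutrophil markers to 89.8 and 160 CPM and the 5 erythroid markers to 102.5 and 40.05 CPM.

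Among CD3-negative immune cells with a class, phagocytes made up 90.9% in Triplet (89.5% to 92.2%) and 81.0% in PD1+CD40 (79.8% to 82.2%). Neutrophils made up 4.64% (3.74% to 5.70%) against 11.8% (10.8% to 12.8%), and dendritic cells 2.46% (1.80% to 3.26%) against 3.75% (3.18% to 4.39%). A cluster led by the neutrophil genes S100a9, S100a8 and Retnlg also scored for mononuclear markers and took no class. It held 23 barcodes of Triplet and 325 of PD1+CD40, which are in neither these shares nor the neutrophil folds below. These orders did not hold once the low-depth clusters were counted as phagocytes: the phagocyte share was then lower in Triplet by 3.66 percentage points, and the neutrophil share higher by 1.30 and the dendritic share by 1.37. However, the low-depth cluster led by Ccl22, Fscn1 and Ccl5 carried mature dendritic genes. It held 3 barcodes of Triplet and 927 of PD1+CD40. All of these were counted as phagocytes, so this alternative cannot settle the order of the phagocyte and dendritic shares. PD1+CD40 also had more barcodes, at 16884, than the 10000 cells loaded for the library. The low-depth barcodes therefore may not be a count of cells.

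Dendritic cells of Triplet were few, at 40 mature and 6 type 1 cells against 149 mature cells in PD1+CD40. Of 5431 measured genes 288 were at least 2-fold higher (5.3%) and 96 lower (1.77%), and the ratio's interval lay beyond 2-fold for 86 and 14. Under TMM scaling, which moves the median of all folds by -0.19, the split was 203 higher and 167 lower. With mature cells only, 174 were higher (3.3%) and 119 lower (2.26%). Phagocyte markers summed to 4416 CPM in dendritic cells of Triplet and 2489 CPM in PD1+CD40, with 0 and 1 of 14 at 0; their part in these differences was not tested.

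Named dendritic genes were the following. Dpp4, the surface peptidase CD26, had the widest gap, at 125 CPM (96.2 to 159) against 27.0 CPM (19.0 to 37.2). Map3k14, which encodes the NF-kB-inducing kinase NIK downstream of CD40, stood at 155 against 51.8 CPM. Nr4a3, an orphan nuclear receptor gene, was at 276 against 103 CPM, Pmaip1, a pro-apoptotic BCL2 family gene, at 123 against 41.6 CPM, and Fnbp1, a membrane-bending protein gene, at 339 against 131 CPM. Lower in Triplet were C1qtnf12, at 15.3 against 65.7 CPM, Dap, at 72.9 against 215 CPM, and Ccl17, at 1693 CPM (1583 to 1809) against 3641 CPM (3541 to 3744). Dpp4 was at 129 CPM in PD1+CTLA4 and 25.4 CPM in CD40+CTLA4, and Ccl17 at 1505 and 4113 CPM. Dpp4, Map3k14, Nr4a3 and Pmaip1 also met the rule when mature cells alone were compared.

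The chemokine Ccl22 was at 2777 against 4550 CPM in dendritic cells, below PD1+CD40 as Ccl17 was. Cd40 was at 389 CPM (338 to 447) and 426 CPM (392 to 462), with overlapping intervals, and the NF-kB inhibitor gene Nfkbia at 595 against 1118 CPM. Il12b, the p40 subunit of IL-12, stood at 665 against 83.2 CPM, with 46.7% of its UMIs in Triplet from 1 of 12 positive cells. Of 27 maturation genes 23 lay below 0, with a median of -0.23 and 1 higher and 2 lower past 2-fold. In mature cells alone that median was -0.03. MHC class II genes were higher in Triplet, with 10 of 11 above 0 and a median of 0.54; H2-Eb1 stood at 3388 against 2146 CPM. Of 26 interferon-gamma response genes 21 lay above 0 with a median of 0.53. That median turned to -0.11 in cells thinned to 1000 UMIs and was 0.34 under DESeq2 size factors, and 0.37 without genes higher in another lineage. Targets of CD40 and NF-kB had a median of -0.17, with 16 of 22 below 0, and 0.04 in mature cells alone. The type 1 dendritic list had a median of 2.72 from the 6 type 1 cells of Triplet, where Xcr1 had 39 UMIs, and -0.30 in mature cells alone. The other 11 lists had medians between -0.13 and 1.12.

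Neutrophils of Triplet numbered 87, with 162709 UMIs in all against 587871 in PD1+CD40. Of 4139 measured genes 257 were at least 2-fold higher (6.21%) and 232 lower (5.61%), but the interval of the ratio lay beyond 2-fold for 26 and 13. TMM scaling moves the median of all folds by -0.31 here, and the split was then 114 higher and 423 lower. T cell markers summed to 332 CPM in neutrophils of Triplet and 83.4 CPM in PD1+CD40, with 0 and 6 of 9 at 0. Phagocyte markers summed to 6072 and 4050 CPM and erythroid markers to 781 and 35.7 CPM. Their part in the neutrophil differences was not tested.

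Type I interferon genes were lower in neutrophils of Triplet: 21 of 24 lay below 0 with a median of -0.72, and 9 were past 2-fold. Isg20, an exonuclease gene, stood at 73.8 CPM (38.1 to 129) against 262 CPM (222 to 307), and Irf7, a transcription factor of the response, at 111 (65.6 to 175) against 327 CPM (282 to 376). Irf7 was at 341 CPM in CD40+CTLA4 and 123 CPM in PD1+CTLA4. Ifit2, which binds viral RNA, had 2 UMIs in Triplet and 59 in PD1+CD40, a ratio of 0.12 (0.01 to 0.46), and Ifit3 had 4 and 61 UMIs. Without the neutrophils that held a T cell marker UMI, 15 in Triplet and 42 in PD1+CD40, the list's median was -0.43. It was -0.18 with mitochondrial UMIs up to 20%, where Irf7 had a log2 fold of -0.46, and -0.36 with barcodes assigned by their own markers, where Irf7 had -0.33, against -1.52 in the class as described. All 21 glycolysis and hypoxia genes lay below 0, with a median of -0.66 and 6 past 2-fold; the median was -0.33 with barcodes assigned by their own markers. Tpi1 was at 86.0 against 310 CPM and the mitophagy gene Bnip3 at 36.9 against 155 CPM.

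Among the single genes, Ptgs2, the cyclooxygenase that starts prostaglandin synthesis, was the one higher neutrophil gene the rule named, at 707 CPM (584 to 848) against 245 CPM (207 to 288). Lower were the stefin gene Stfa2, at 36.9 against 364 CPM, and its relative Cstdc5, at 430 against 1255 CPM. Ddt, a relative of the cytokine gene Mif, was at 135 against 509 CPM, the uridine phosphorylase Upp1 at 277 against 971 CPM, and Id1, an inhibitor of helix-loop-helix factors, at 178 against 539 CPM. Wfdc17 was at 1069 against 2888 CPM and Asprv1, a retroviral-like protease gene, at 516 against 1300 CPM. Upp1 was at 1101 CPM in CD40+CTLA4 and 149 CPM in PD1+CTLA4. The chemokine gene Cxcl3 had 1 UMI in Triplet and 84 in PD1+CD40, a ratio of 0.04 (0.0011 to 0.25). The immediate early gene Fos was at 1420 against 614 CPM. Of 14 chemokines 10 lay below 0, with a median of -0.58, and -0.21 with cells weighted equally. Of 16 granule genes 10 lay below 0, with a median of -0.18 that turned to 0.28 without the neutrophils that held a T cell marker UMI. The other 9 lists had medians between -0.45 and 0.34.

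**Figure D5:**
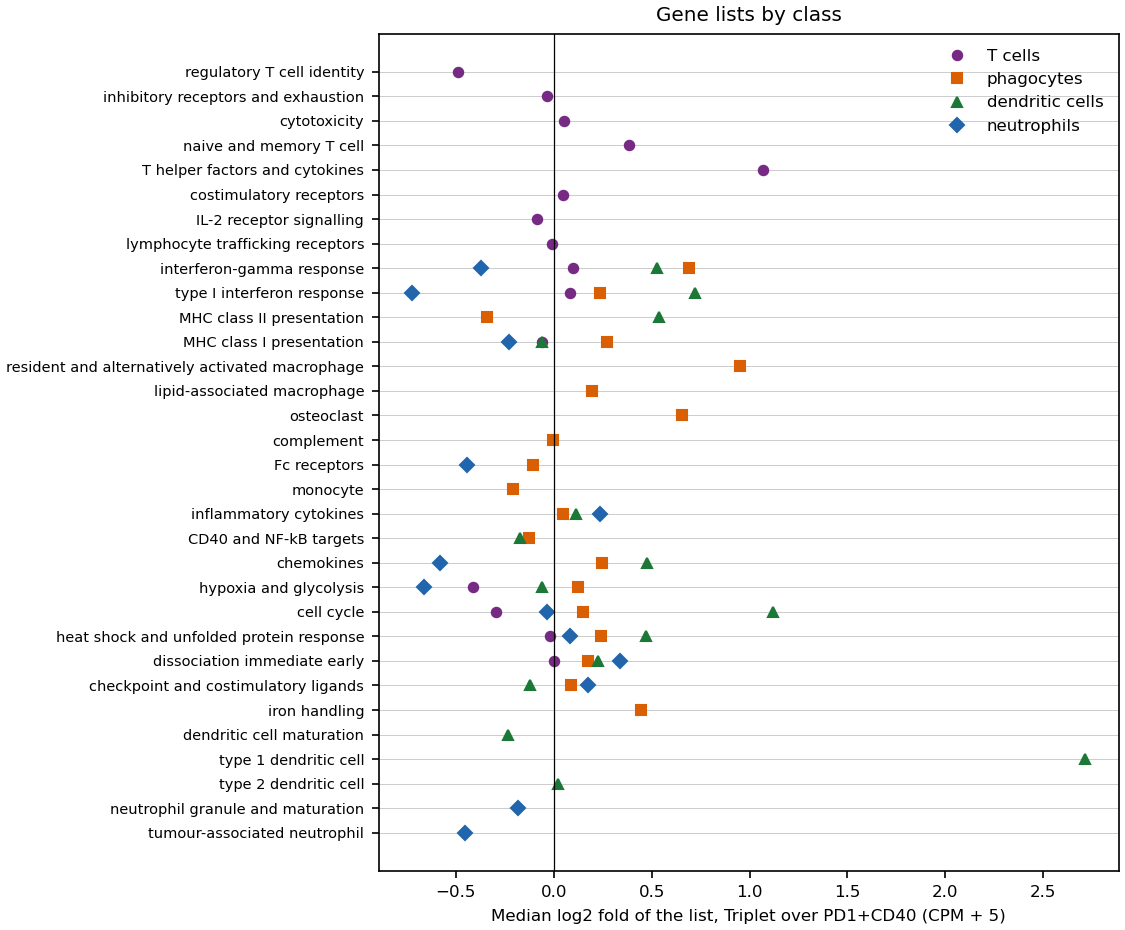
Median log2 fold of Triplet over PD1+CD40 (CPM + 5, x axis) of each gene list (y axis) in each class it was fixed for; symbols mark the class. The interferon-gamma list lies at 0.69 in phagocytes and 0.10 in T cells, and the type I list at 0.24 in phagocytes and -0.72 in neutrophils.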

How the data were processed

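Raw UMI counts per gene and barcode were used as deposited by the authors; per the file headers they came from Cell Ranger 7.1.0 for the treated libraries and version 4 for PBS. The genome build was mm9 per the submitters' processing notes, and no gene annotation is named in what was used. Barcodes of 500 or more UMIs and 300 or more genes, with mitochondrial UMIs of 10% or less, of all 5 libraries were clustered with Scanpy 1.11.5 (2000 variable genes, 30 components, 15 neighbours, Leiden resolution 1). Clusters were named from marker lists, and mononuclear clusters with a median under 2500 UMIs stayed unnamed. A doublet caller marked 4 and 0 barcodes and was judged not to have worked, so doublets were left in; its ranks served an alternative. Counts were summed by class and library and scaled to CPM. Folds are log2 of Triplet over PD1+CD40 after adding 5 CPM, called at 2-fold. With 1 library a side, edgeR 4.0.16 and DESeq2 1.42.0 gave scaling factors only, and no test was run. The folds and the intervals of ratios were tested on simulated class sums, while clustering, naming, shares and thinning were not.

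The genes named were the 8 highest and 8 lowest folds of each class that reached 50 CPM and 30 UMIs on the higher side, in at least 10 cells, at most 20% of UMIs from 1 cell, and an interval of the ratio beyond 2-fold, leaving out genes over 5 times higher in another lineage, plus up to 4 members of each list and the antibody targets. Members named beyond these were chosen after their values were seen. The classes, lists and rules were chosen with earlier results of these data known. One gene's result is not reported here.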

Additional observations from a re-analysis of the deposited data

How the results depend on the processing

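No paired analysis was possible because each side had 1 library. Counts of genes past 2-fold moved with the settings, given here as higher and lower in Triplet. With a pseudocount of 1 CPM they were 66 and 41 in T cells and 433 and 145 in dendritic cells; with 20 CPM they were 9 and 6 in T cells, 9 and 2 in phagocytes, 107 and 27 in dendritic cells and 123 and 112 in neutrophils. With no filter on low counts they were 66 and 48 in T cells, 666 and 322 in dendritic cells and 1986 and 1250 in neutrophils. TMM factors gave 15 higher phagocyte genes, 167 lower dendritic genes and 114 higher and 423 lower neutrophil genes; DESeq2 size factors gave 15, 174, 143 and 392. Weighting cells equally gave 53 lower T cell and 365 lower neutrophil genes. Thinning to 1000 UMIs gave 185 and 88 in T cells, 47 and 8 in phagocytes, 68 higher in dendritic cells and 124 and 153 in neutrophils. At 1000 UMIs and 500 genes dendritic cells had 171 and 197; neutrophils stayed unnamed there and gave no value. Assigning barcodes by their own markers gave 12 lower phagocyte and 547 higher dendritic genes, and mature cells alone 174 higher. Among phagocytes, 42 were higher with unnamed subclusters kept, 11 lower with low-depth clusters kept, 16 higher and 11 lower without the Retnla cluster, and 9 higher with shared clusters weighted the same.

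The Treg-like share, at a difference of -17.2 points, differed by -11.746 at 1000 UMIs, -12.142 at up to 20% mitochondrial UMIs, -4.8 by own markers and -14.644 at resolution 2. The CD8-like difference was 0.306 by own markers. The phagocyte difference was 5.934 at 1000 UMIs, -0.712 by own markers, 12.177 at resolution 2, -3.659 with low-depth clusters and 10.175 with unnamed subclusters. The dendritic difference was -3.277, 1.329 by own markers, 1.371 with low-depth clusters and -1.557 with unnamed subclusters. The neutrophil difference was -0.633 by own markers, 1.297 with low-depth clusters and -7.016 with unnamed subclusters. The NK difference, -2.056 points, was -3.492 at 1000 UMIs, -0.252 by own markers and 0.148 with low-depth clusters.

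Of 931 alternative values of 71 genes past 2-fold, 88 were under 2-fold and 9 reversed. Without the Retnla cluster the log2 fold was -1 for Ccl8, -0.324 for Cd163, -0.221 for F13a1, -0.21 for Fcrls, -0.079 for Lyve1 and -0.566 for Selenop, and the resident list was at -0.528. With shared clusters weighted the same it was -0.172 for Cd163, -0.2 for F13a1, -0.162 for Lyve1 and -0.011 for the list. In dendritic cells the interferon-gamma list was at -0.108 when thinned, and the type 1 list at -0.021 when thinned, -0.587 at 1000 UMIs and -0.302 in mature cells. The cause was not tested.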

Other observations

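Classes outside the comparison also differed in size. NK-like cells numbered 19 in Triplet and 122 in PD1+CD40, 1.01% and 3.07% of CD3-negative immune cells with a class. With the low-depth mononuclear clusters in the denominator the shares were 0.992% and 0.844%, the opposite order. Tumour-like cells numbered 386 and 53. Plasmacytoid dendritic-like cells numbered 13 and 12, and B-like cells 5 and 2.

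Mononuclear subclusters that took no class were split between the libraries. The one led by Ccl17, Ltb and Mfge8 held 67 barcodes of Triplet, 563 of PD1+CD40, 449 of CD40+CTLA4, 61 of PD1+CTLA4 and 7 of PBS. The one led by Ear2, Mucl1 and Trerf1 also had Retnla and Cd209a among its top 10 genes. It held 484 of Triplet, 18 of PD1+CD40, 11 of CD40+CTLA4, 639 of PD1+CTLA4 and 30 of PBS. A cycling one led by Hist1h1b and Mucl1 held 196, 3, 2, 179 and 9 in the same order. CD40+CTLA4 resembled PD1+CD40 in its low-depth mononuclear clusters, at 60.98% of barcodes, and PD1+CTLA4 had 2.03%.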
